A study of Mus musculus with 16 samples.

Results

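Secreted antagonists of Wnt signalling, the coreceptors Lrp5 and Lrp6 and the feedback gene Axin2 were followed in mouse distal femur. The members were Sfrp1, Sfrp2, Sfrp4, Frzb, Wif1, Dkk1, Dkk3, Lrp5, Lrp6 and Axin2, 10 of the 18193 genes that the arrays named by 1 symbol. They were taken by symbol and had 19 probe sets, and each gene was read from its brightest one. Of the 10, 9 lay above the filter on dim genes and were tested, and Lrp5 lay under it.

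Gene expression was measured in 16 female C57BL/6 mice, all ovariectomized, with 1 array for each mouse and no pooling. RNA was extracted from the last 5 mm at the distal end of a left femur. Wild-type mice received vehicle (WT-OVX) or estrogen (WT-E2-4hr). Mice without estrogen receptor alpha in osteoclasts, the bone-resorbing cells, received vehicle (ERaKO-OVX) or estrogen (ERaKO-E2-4hr). Each group held 4 mice, and bones were taken 4 hours after treatment. The sources used here do not give the age of the mice, the driver of the deletion, or which estrogen was used at which dose. The series title links the osteoclast receptor to bone protection by estrogen, so the comparisons ask what estrogen does within 4 hours and whether the response differs without that receptor. Levels are array signals, and a group's signal written with ± is its mean with the standard deviation over mice. Each difference is one in log2(signal + 16), written with its SE.

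Wnt proteins bind a Frizzled receptor together with Lrp5 or Lrp6. This keeps beta-catenin from being degraded, so that it enters the nucleus and activates target genes with TCF/LEF factors, among them Axin2, which feeds back on the pathway. The secreted Frizzled-related proteins (Sfrp1, Sfrp2, Sfrp4 and Frzb) and Wif1 bind Wnt ligands, and Dkk1 blocks the coreceptors. In bone the pathway promotes osteoblast formation, and Sost, made by osteocytes, is another blocker of the coreceptors.

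The sequences before the start sites of Frzb, Dkk1 and Wif1 are shown because the signals of these genes varied together across mice, as described further on. They are the 250 bases before the start in RefSeq (GRCm38.p6), 5′ to 3′ on the strand of the gene, at chr2:80447397-80447646 (minus strand) for Frzb, chr19:30549497-30549746 (minus strand) for Dkk1 and chr10:121033754-121034003 (plus strand) for Wif1. Capitals mark the TCF/LEF core, CTTTGA or CTTTGT on either strand.
Frzb: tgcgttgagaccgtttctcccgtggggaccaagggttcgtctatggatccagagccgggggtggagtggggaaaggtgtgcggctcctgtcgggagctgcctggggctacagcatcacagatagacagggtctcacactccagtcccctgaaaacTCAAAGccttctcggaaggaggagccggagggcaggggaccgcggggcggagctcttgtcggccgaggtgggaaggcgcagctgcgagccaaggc
Dkk1: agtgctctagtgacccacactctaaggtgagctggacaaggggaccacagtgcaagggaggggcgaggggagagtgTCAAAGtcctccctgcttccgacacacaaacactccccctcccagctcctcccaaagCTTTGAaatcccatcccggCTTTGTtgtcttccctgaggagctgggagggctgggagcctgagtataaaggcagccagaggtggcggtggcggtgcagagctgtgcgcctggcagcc
Wif1: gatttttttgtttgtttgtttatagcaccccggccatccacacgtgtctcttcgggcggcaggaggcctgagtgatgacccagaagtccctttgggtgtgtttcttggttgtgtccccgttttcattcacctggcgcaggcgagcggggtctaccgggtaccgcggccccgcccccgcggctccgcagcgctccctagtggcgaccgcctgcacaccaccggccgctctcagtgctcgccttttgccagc
Dkk1 held 3 matches, which began 174, 117 and 98 bases before the start. Frzb held 1 match, at 95 bases. These letters were not in the Wif1 window, nor in those of Axin2 and Sfrp2, so 2 of the 5 members in the promoter table held a match. The Axin2 and Sfrp2 windows, at chr11:108920099-108920348 and chr3:83766071-83766320, lay inside the spans of these genes, which begin at 108917828 and 83765750. Bases before other starts of these genes were not searched. Of 27025 RefSeq promoters of the same length, 27.7% held at least 1 match, so a match describes the letters and not a bound site.

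The bone end was homogenized with no separation of cells given, so fewer cells of a type and less RNA per cell cannot be told apart. Markers of the labelled tissue were bright, with a signal of 30018 ± 2950.1 for the osteoblast collagen gene Col1a1 and 13513 ± 1520.3 for the osteocyte gene Dmp1 in wild type under vehicle (n = 4). Every group held mice numbered 1 to 4, and arrays of mice 1 and 2 differed from those of mice 3 and 4 in markers of non-bone tissue. The summed signal of 20 skeletal muscle genes ranged from 108288 to 889502 in mice 1 and 2, but from 5659 to 45075 in mice 3 and 4, and that of 10 tendon and fibrous tissue genes was 24463 to 106443 and 10131 to 20426. In 3 arrays, that of knockout estrogen replicate 1 and those of replicate 2 in both wild-type groups, the bacterial spike-in signal was 28518 or more, against at most 14563 in the other 13. Knockout estrogen replicate 1 also had the highest level of the muscle, fibrous tissue and adipocyte lists and the lowest of the cartilage, osteoclast and osteocyte lists. Esr1 encodes the deleted receptor. Its wild-type signal was 945 ± 138 with vehicle and 507 ± 106 with estrogen, and its knockout signal 637 ± 60.9 and 539.8 ± 149 (n = 4 each). Its knockout minus wild-type difference, averaged over treatments, was −0.24 ± 0.13 and did not pass by limma (adjusted p = 1). Other bone cells keep the receptor, so this does not check the labels.

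**Figure D1:**
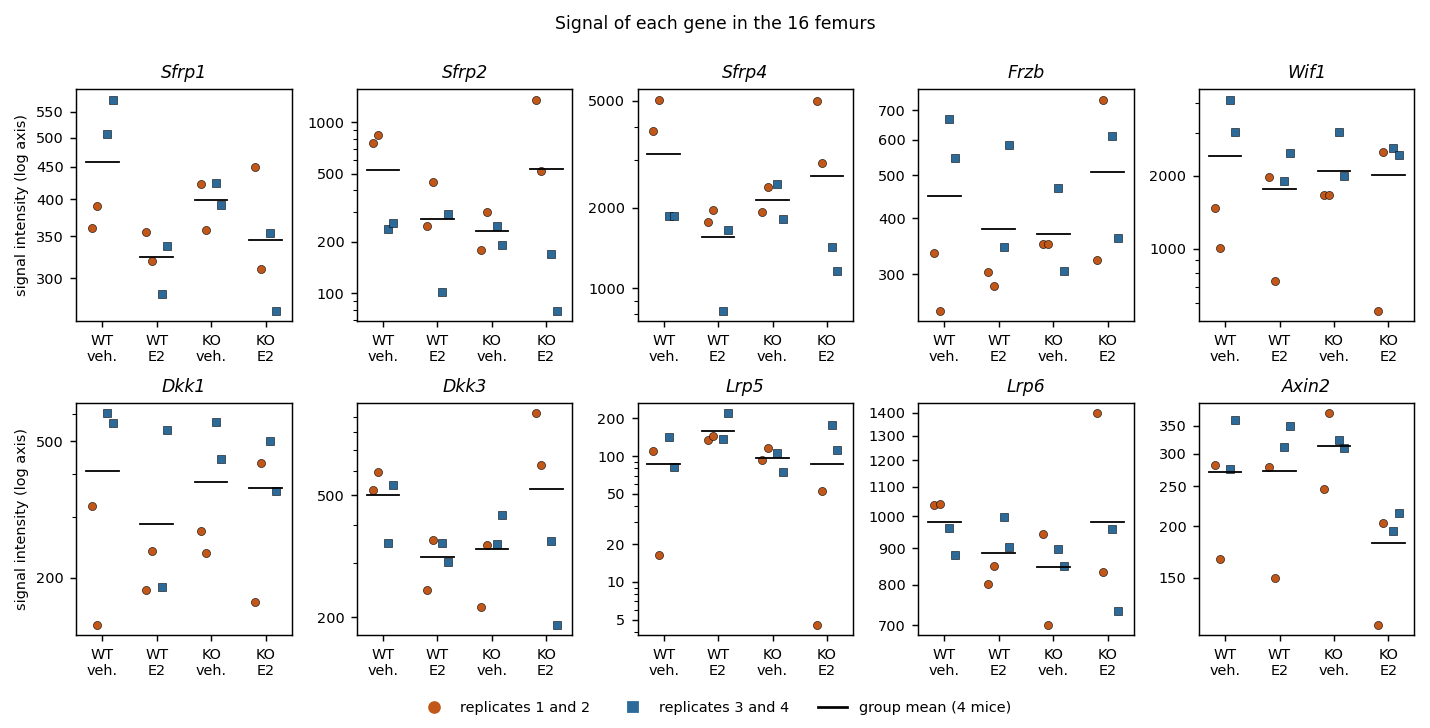
Array signal (log axis) of each gene in the 16 femurs, by group. Circles are mice 1 and 2, squares mice 3 and 4, and bars the group means. Axin2 was lower in all 4 estrogen-treated knockout mice than in the vehicle-treated ones, and Sfrp2 in the estrogen-treated knockout ran from 78.6 to 1358.

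After estrogen, the mean log2 signals of all 9 tested members lay below their vehicle level in wild type, while in the knockout 5 lay above and 4 below it. None of these differences passed the threshold over all genes. By limma, 0 of 9 members had an adjusted p under 0.05 in either genotype, where 0% of the 12735 tested genes did. Without adjustment 2 members, Sfrp1 and Sfrp4, were lower in wild type at p under 0.05, beside 4.79% of all genes, and 1 member, Axin2, was lower in the knockout, beside 3.24%. The median log2 difference of the 9 members was −0.44 in wild type and 0.06 in the knockout, against −0.01 and 0.01 over all genes. A difference below 0 in wild type was found for 52.1% of all genes, and one above 0 in the knockout for 51.4%. Axin2 counted among the 9 below 0 in wild type at −0.01 ± 0.28. Several members varied together across mice, as described further on, so such counts of members are not counts of independent genes. The 4 vehicle-treated mice of a genotype serve in each of its comparisons, so the values of different comparisons are not independent of each other.

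Knockout minus wild type under vehicle had 8 of 9 members below 0, beside 49.6% of all genes, and a median of −0.19. After estrogen 8 of 9 lay above 0, beside 53.4% of all genes, with a median of 0.37. By limma 0 of 9 passed in either, with or without adjustment for the number of genes, beside 3.6% of all genes at an unadjusted p under 0.05 under vehicle and 6.75% after estrogen. The difference between the estrogen responses, knockout minus wild type, was above 0 for 8 of 9 members, beside 51.1% of all genes, and below 0 for Axin2, with a median of 0.37. By limma 0 of 9 passed with adjustment, and Dkk3 alone had an unadjusted p under 0.05, where 3.89% of all genes did so in that direction.

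**Figure D2:**
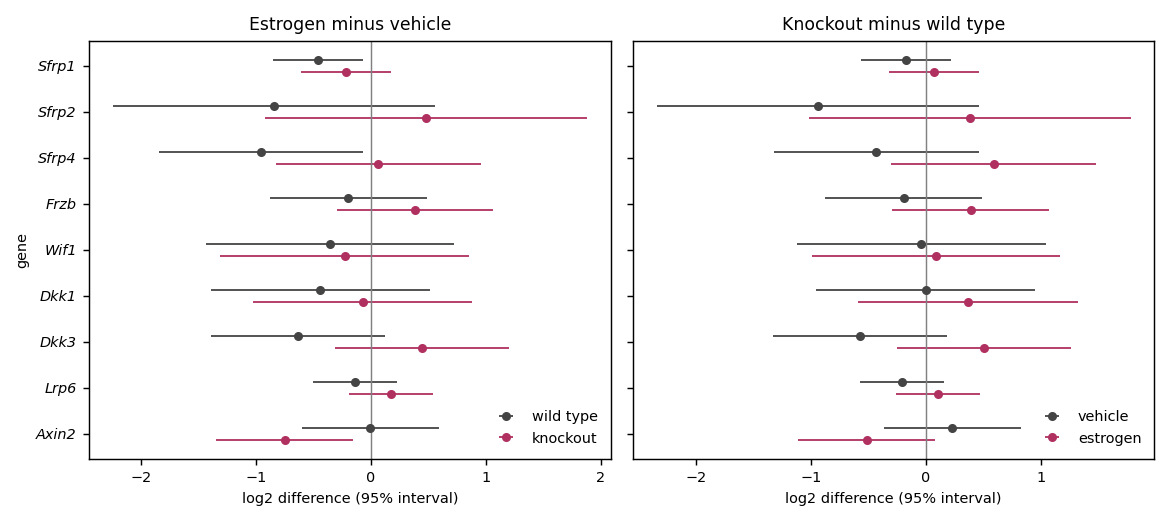
Log2 differences with 95% intervals from limma for the 9 tested members. The left panel shows estrogen minus vehicle in wild type and knockout, the right panel knockout minus wild type under vehicle and after estrogen. Intervals off 0 on the left are those of Sfrp1 and Sfrp4 in wild type and of Axin2 in the knockout.

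Sfrp1 (Entrez gene 20377) encodes a Wnt-binding antagonist made by bone-forming cells, whose loss is known to raise bone mass in mice. Its signals in wild type were 361, 391, 508 and 575 under vehicle, in replicate order, and 355, 319, 283 and 338 after estrogen. The groups did not overlap, since the highest estrogen value, 355, lay under the lowest vehicle value, 361. The same held, as lower after estrogen, for 2.29% of all genes. The difference was −0.46 ± 0.19 (limma p = 0.0237, adjusted p = 0.486; exact two-sided permutation p = 0.0286, the smallest that 70 arrangements allow). Most of it came from mice 3 and 4, at −0.77, against −0.15 in mice 1 and 2. Permuted within these pairs, the exact p was 0.0556, again the smallest possible. The limma p before adjustment went over 0.05 without vehicle replicate 3 or 4 or estrogen replicate 3, with differences of −0.56 to −0.35 as 1 mouse at a time was left out.

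In the knockout, Sfrp1 signals were 423, 358, 424 and 391 under vehicle and 449.6, 311, 354 and 267 after estrogen. These groups overlapped, and the difference was −0.22 ± 0.19 (limma adjusted p = 0.981). The responses of the genotypes differed by 0.24 ± 0.26, with a 95% interval of −0.31 to 0.79, so they were not told apart. Averaged over genotypes, estrogen minus vehicle was −0.34 ± 0.13 (adjusted p = 0.679; permutation p = 0.0114 over 4900 arrangements and 0.0231 within the pairs). In wild type all 5 Sfrp1 probe sets had a difference below 0, from −0.22 to −0.83. In the knockout 4 lay below 0, from −0.01 to −0.31, and 1 above it, at 0.36, whose average over genotypes was 0.03. This probe set and the dimmest, with mean signals of 81.0 and 38.6, lay within the range of Y-linked probe sets in these female mice, whose means reached 83.6.

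Sfrp2 and Sfrp4, Wnt-binding relatives of Sfrp1, varied widely between mice of 1 group. Sfrp2 (Entrez gene 20319) had signals of 758, 846, 237 and 257 in vehicle-treated wild type and 248, 449, 102 and 292 after estrogen. In the knockout they were 179, 299, 247 and 192 under vehicle and 1358, 516, 169 and 78.6 after estrogen. The estrogen-treated knockout mice thus spanned the whole range of the study, from 78.6 to 1358, and replicates 1 and 2 were the high ones there and in wild type under vehicle. The wild-type difference was −0.84 ± 0.66 (limma adjusted p = 0.766) and the knockout difference 0.48 ± 0.66 (adjusted p = 0.984). The wild-type value was −0.47 without estrogen replicate 3. In the knockout the sign turned between mice 1 and 2, at 1.79, and mice 3 and 4, at −0.82. Without knockout estrogen replicate 1, the mouse with the highest muscle and fibrous marker levels, the knockout difference was −0.20.

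Sfrp4 (Entrez gene 20379), known from bone and fibrous tissue, had a bright probe set, at percentile 93.2 of all probe sets. Its signals in wild type were 3854, 5049, 1863 and 1869 under vehicle and 1766, 1955, 825 and 1647 after estrogen. The lower signals after estrogen held in both pairs of mice, at −1.24 and −0.67, but the groups overlapped. The difference was −0.96 ± 0.42 (limma p = 0.0368, adjusted p = 0.527; exact permutation p = 0.0857, and 0.0556 within the pairs). Leaving out vehicle replicate 1 or 2 or estrogen replicate 3 took the unadjusted limma p over 0.05, and the differences ran from −1.16 to −0.68 as 1 mouse at a time was left out. With array quality weights it was −0.40 (adjusted p = 0.599).

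In the knockout, Sfrp4 signals were 1923, 2392, 2444 and 1817 under vehicle and 5009.9, 2934, 1422 and 1160.3 after estrogen. The vehicle-treated mice lay close together, and the estrogen-treated ones lay on both sides of them, with mice 1 and 2 above and mice 3 and 4 below. The difference was 0.06 ± 0.42, made of 0.83 in mice 1 and 2 and −0.71 in mice 3 and 4. The responses of the genotypes differed by 1.02 ± 0.59 (limma adjusted p = 0.698), with 2.07 in the first pair of mice and −0.04 in the second. The tendon and fibrous tissue list, with 10 tested genes, had medians of −0.92 in wild type, 0.39 in the knockout and 1.23 for the difference between responses. By limma 0 of its genes passed in each, with 0, 0 and 1 at an unadjusted p under 0.05. Its part in the Sfrp2 and Sfrp4 values was not tested.

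Frzb (Entrez gene 20378), a Frizzled-related antagonist known from cartilage, had signals of 335, 248, 669.7 and 547 in vehicle-treated wild type and 304, 282, 345 and 583 after estrogen. In the knockout they were 351, 350.2, 468 and 305 under vehicle and 323, 738, 611 and 362 after estrogen. All 4 groups overlapped. The estrogen difference was −0.20 ± 0.32 in wild type and, in the knockout, 0.38 ± 0.32, while the responses differed by 0.58 ± 0.46 (limma adjusted p = 0.757). A second Frzb probe set gave −0.38 in wild type and 0.40 in the knockout.

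Wif1 (Entrez gene 24117), a secreted protein that binds Wnts and is made by osteoblasts, also had a bright probe set, at percentile 92.1. Its signals were 1479, 1013, 4118 and 3025 in vehicle-treated wild type and 1978, 737, 1898 and 2479.8 after estrogen. In the knockout they were 1663, 1671, 3040.4 and 1988 under vehicle and 556, 2496, 2596 and 2429 after estrogen. The lowest value of 3 groups belonged to the array of high spike-in signal in that group. The difference was −0.36 ± 0.51 in wild type (limma adjusted p = 0.889) and −0.23 ± 0.51 in the knockout (adjusted p = 0.986). Without knockout estrogen replicate 1, whose signal was 556 against 2429 to 2596 in the others of its group, the knockout value was 0.31. In wild type the value ran from −0.70 without vehicle replicate 2 to 0.02 without estrogen replicate 2.

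Dkk1 (Entrez gene 13380) encodes a coreceptor blocker that restrains bone formation. Signals were 324, 146, 602 and 565 in wild type under vehicle, 184, 239.7, 188 and 539 in wild type after estrogen, 273, 236, 569.6 and 444 in the knockout under vehicle and 169.7, 431, 499 and 357 in the knockout after estrogen. Each group spanned low and high mice, and none separated from another. Estrogen minus vehicle was −0.44 ± 0.45 in wild type and, in the knockout, −0.07 ± 0.45, while the responses differed by 0.37, with a 95% interval of −0.98 to 1.72. The wild-type value ran from −0.85 without vehicle replicate 2 to −0.20 without vehicle replicate 3. A second Dkk1 probe set gave −0.37 in wild type and −0.67 in the knockout.

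Dkk3 (Entrez gene 50781) belongs to the Dickkopf family, but its action on Wnt signalling is less clear. Its signals in wild type were 521, 593, 348 and 539 under vehicle and 245, 356, 348 and 303 after estrogen. In the knockout they were 216, 343, 346 and 430.3 under vehicle and 923, 626, 355 and 189 after estrogen. The values of 923 and 626 in knockout estrogen replicates 1 and 2 were the highest Dkk3 signals of the study. The wild-type difference was −0.64 ± 0.36 (limma adjusted p = 0.641) and the knockout difference 0.44 ± 0.36 (adjusted p = 0.981).

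Among the members, Dkk3 had the only difference between responses with an unadjusted p under 0.05, at 1.08 ± 0.51 (limma p = 0.0482, adjusted p = 0.651; permutation p = 0.071 over 4900 arrangements). The arrangements shuffled treatment within each genotype, so this permutation p is against no estrogen effect in either genotype. The difference between responses was 2.30 in mice 1 and 2 and −0.14 in mice 3 and 4. The unadjusted limma p went over 0.05 in 12 of 16 fits that left out 1 mouse, and without knockout estrogen replicate 1 the difference was 0.74. The second Dkk3 probe set gave 1.28 (limma adjusted p = 0.927 over all probe sets). The summed signal of the skeletal muscle list in the estrogen-treated knockout was 889502 and 288251 in replicates 1 and 2, and 45075 and 5659 in replicates 3 and 4. Its median difference between responses was 2.02, with 0 of 20 genes passing by limma and 0 at an unadjusted p under 0.05. Its part in the Dkk3 value was not tested.

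**Figure D3:**
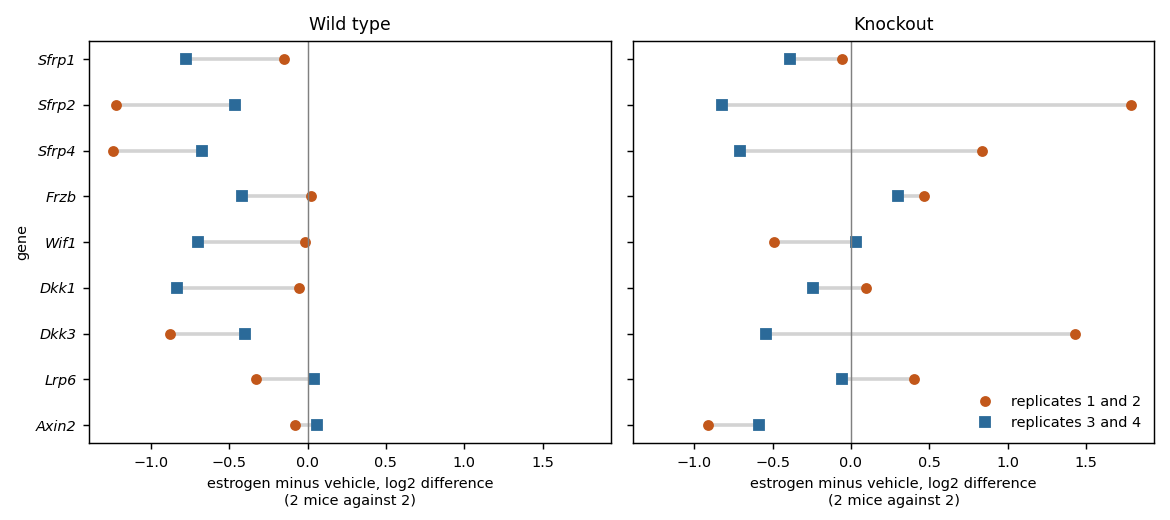
Estrogen minus vehicle (log2 difference) within mice 1 and 2 (circles) and within mice 3 and 4 (squares), for wild type on the left and knockout on the right. In the knockout, Sfrp2, Sfrp4 and Dkk3 lie above 0 in mice 1 and 2 and below 0 in mice 3 and 4, while Axin2 lies below 0 in both.

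Lrp6 (Entrez gene 16974), a coreceptor of canonical Wnt signals, varied little. Its signals ran from 881 to 1040 in vehicle-treated wild type and from 801 to 995 after estrogen, and in the knockout from 702 to 943 under vehicle and from 733 to 1397 after estrogen. The estrogen difference was −0.14 ± 0.17 in wild type, with a 95% interval of −0.51 to 0.22, and 0.17 ± 0.17 in the knockout, with an interval of −0.20 to 0.54. A dimmer Lrp6 probe set gave −0.56 and −0.15. Lrp5 (Entrez gene 16973), whose loss lowers bone mass, was near background. Its mean signal over the 16 arrays was 107, with signals of 109, 16.3, 142 and 81.9 in vehicle-treated wild type and 133, 144, 138 and 218 after estrogen. In the knockout they were 92.9, 115, 107 and 74.5 under vehicle and 4.57, 52.5, 176 and 112 after estrogen. The Lrp5 mean lay under the filter, although above the means of Y-linked probe sets in these female mice, which reached 83.6. The highest single Y-linked signal, 276 in wild-type vehicle replicate 2, lay above every Lrp5 signal. No level or difference of Lrp5 was thus measurable with confidence. The fitted wild-type difference was 0.95 ± 0.57 and lies outside the tested genes.

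Axin2 (Entrez gene 12006), a scaffold of the beta-catenin destruction complex and a common readout of Wnt signalling, had an unadjusted p under 0.05 for estrogen in the knockout only, where the test of the difference between genotypes did not pass. Its signals in the knockout were 246, 375, 323 and 309 under vehicle and 115, 204, 194.5 and 216 after estrogen. The estrogen-treated signals and the 246 lay under the highest single Y-linked signal, 276. The mean of this probe set, 260, lay above the Y-linked means, which reached 83.6. Every estrogen-treated knockout mouse lay below every vehicle-treated one, as 2.88% of all genes did in that direction. The difference was −0.75 ± 0.28 (limma p = 0.0169, adjusted p = 0.981; exact two-sided permutation p = 0.0286, the smallest possible). It was −0.91 in mice 1 and 2 and −0.59 in mice 3 and 4, with an exact permutation p of 0.0556 within the pairs.

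In wild type, Axin2 signals were 282, 167, 275 and 361 under vehicle and 278, 150, 312 and 349.8 after estrogen, and the difference was −0.01 ± 0.28. The responses of the genotypes differed by −0.74 ± 0.40, which did not pass (limma p = 0.0809, adjusted p = 0.679; permutation p = 0.121 over 4900 arrangements). These arrangements shuffled treatment within each genotype, so this permutation p is against no estrogen effect in either genotype. Knockout minus wild type was 0.23 ± 0.28 under vehicle and −0.51 ± 0.28 after estrogen. The 115 of knockout estrogen replicate 1 was the lowest Axin2 signal of the study, and without that mouse the knockout difference was −0.56, with an unadjusted limma p over 0.05. The second Axin2 probe set, with a mean signal of 38.2 at the level of background, gave 0.04 in the knockout and −0.28 in wild type. Leaving out the 3 arrays of high spike-in levels removes the same 1 knockout mouse, so it is not a further check of the knockout difference. The brighter probe set again gave −0.56 (limma adjusted p = 0.999). For estrogen the cartilage list had a wild-type median of −0.70 and a knockout median of −0.63, with 0 of 16 genes passing by limma and 1 and 0 at an unadjusted p under 0.05, and its part in the Axin2 value was not tested.

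A wider Wnt pathway list of 89 other genes showed no called member in any comparison of treatment or genotype. Of these, 87 had a probe set and 65 were tested. By limma 0 of 65 passed in wild type after estrogen, with 45 of 65 below 0, where 52.1% of all genes were, and a median of −0.16. An unadjusted p under 0.05 was found for 5 of 65, beside 8.69% of all genes in either direction. Of the parts of the list, only the targets are counted next. Axin2, a member and so not in that count, was at −0.01 in wild type and −0.75 in the knockout. Among 10 tested Wnt target genes, 9 lay below 0 in wild type, with a median of −0.47. In the knockout 4 lay below and 6 above 0, with a median of 0.15. In wild type the 3 list genes of the smallest p were targets. They were Ccnd1, a cell-cycle cyclin, Tnfrsf19, a receptor of the tumour necrosis factor family, and Twist1, a mesenchymal transcription factor. The Ccnd1 signal was 1833 ± 203 with vehicle and 1253 ± 308 with estrogen (n = 4 each), a difference of −0.57 ± 0.18 (adjusted p = 0.358). Tnfrsf19 differed by −0.76 ± 0.26 and Twist1 by −0.98 ± 0.35 (limma adjusted p = 0.397 and 0.429).

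In the knockout, 0 of 65 list genes passed after estrogen by limma, with 35 above and 30 below 0, a median of 0.02 and 1 at an unadjusted p under 0.05, beside 4.9% of all genes. The genes of smallest p in the comparisons that follow include the ligands Wnt10b and Wnt3 and the receptor Ror2, which lie under the filter on dim genes. As for Lrp5, no difference of these 3 was measurable with confidence, and the values of these 3, unlike those of Lrp5, are not given. Of the others, the ligand Wnt4 differed by 0.50 ± 0.22 in the knockout after estrogen (limma adjusted p = 0.981). The responses differed by 1.51 ± 0.59 for the receptor Fzd8 (limma adjusted p = 0.636). For this difference 46 of 65 list genes lay above 0, where 51.1% of all genes did, 0 were called by limma and 3 had an unadjusted p under 0.05, beside 7.62% of all genes. Knockout minus wild type gave 0 called genes under vehicle and 0 after estrogen, with 1 and 4 at an unadjusted p under 0.05, beside 3.6% and 6.75% of all genes. Under vehicle the Dkk1 receptor Kremen1 differed by 0.42 ± 0.17 (limma adjusted p = 0.952). After estrogen Fzd8 differed by 1.31 ± 0.42 and the receptor Fzd1 by 0.53 ± 0.22 (limma adjusted p = 0.671 and 0.694). The wild-type Sost signal was 369 ± 67.4 with vehicle and 489 ± 259 with estrogen, and the knockout signal 345 ± 78.5 and 359 ± 102 (n = 4 each). The estrogen differences of 0.28 ± 0.30 and 0.04 ± 0.30 did not pass (limma adjusted p = 0.838 and 0.994).

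Averaged over genotypes, estrogen left 0 of 9 members and 0 of 65 list genes past the threshold by limma, with 1 and 4 at an unadjusted p under 0.05, beside 6.15% of all genes in either direction and 3.67% in the direction of that member, Sfrp1. Of all genes 2 of 12735, or 0.0157%, passed, both higher. In that average the smallest p in the list were those of Ccnd1 at −0.35 ± 0.13, Tnfrsf19 at −0.50 ± 0.18 and the antagonist Sfrp5 at 0.62 ± 0.24. The genotype average gave 0 called members and 0 called list genes by limma, with 0 and 1 at an unadjusted p under 0.05, beside 3.03% of all genes. In it Kremen1 differed by 0.35 ± 0.12 (limma adjusted p = 1).

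Between the pairs of mice, 4 members passed the threshold. Sfrp2 and Sfrp4 were lower, and Dkk1 and Wif1 higher, in replicates 3 and 4 than in replicates 1 and 2. With the group means in the fit, 4 of 9 members passed by limma, beside 17.9% of all genes, of which 8.93% were higher and 9.01% lower. The labels give no meaning to the replicate numbers, and the comparison was chosen with the difference between the pairs already known.

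Sfrp2 ran, as lowest, median and highest signal, at 179, 482 and 1358 in replicates 1 and 2 and at 78.6, 215 and 292 in replicates 3 and 4 (n = 8 each). The difference was −1.32 ± 0.33 (limma adjusted p = 0.0119; permutation p = 0.0108 over 1296 arrangements within groups). In the 4 groups, in the order of the study's description, it was −1.64, −0.88, −0.08 and −2.69. The Sfrp2 median of 215 in replicates 3 and 4 lay under 276, the highest single Y-linked signal. The lowest Sfrp2 signal, 78.6, lay under 83.6, the highest Y-linked mean, while the mean of its probe set was 389. Sfrp4 ran at 1766, 2663 and 5049 against 825, 1732 and 2444, a difference of −0.87 ± 0.20 (adjusted p = 0.00771; permutation p = 0.00772), with −1.23, −0.66, −0.03 and −1.57 in the groups. The difference was below 0 in each group, and nearest to 0 in the vehicle-treated knockout.

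Dkk1 ran at 146, 238 and 431 in replicates 1 and 2 and 188, 519 and 602 in replicates 3 and 4, a difference of 0.87 ± 0.23 (limma adjusted p = 0.0178; permutation p = 0.00926). Its group values were 1.35, 0.57, 0.94 and 0.61, and its second probe set gave 0.91 (limma adjusted p = 0.0472 over all probe sets). The Dkk1 median of 238 in replicates 1 and 2 also lay under 276, while the mean of its brighter probe set was 360. Wif1 ran at 556, 1571 and 2496 in replicates 1 and 2, against 1898, 2538 and 4118, a difference of 1.00 ± 0.26 (adjusted p = 0.0157; permutation p = 0.00772), with 1.52, 0.83, 0.56 and 1.08 in the groups. Both were higher in replicates 3 and 4 of all 4 groups, although the ranges of the pairs overlapped.

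**Figure D4:**
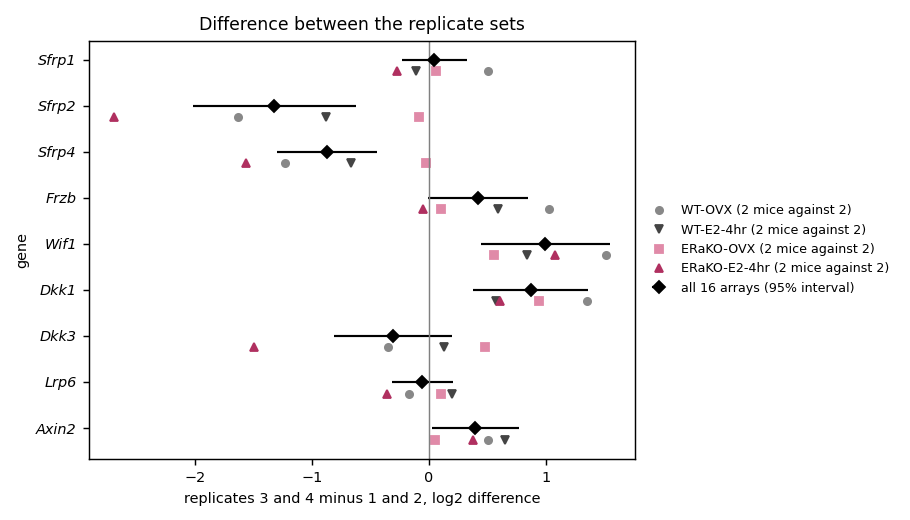
Replicates 3 and 4 minus replicates 1 and 2 (log2 difference). Diamonds with 95% intervals come from all 16 arrays, and small symbols from each group, with 2 mice against 2. Sfrp2 and Sfrp4 lie below 0 and Dkk1 and Wif1 above 0 in each of the 4 groups.

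The other 5 tested members did not pass. Axin2 differed by 0.40 ± 0.18 (limma adjusted p = 0.13), Frzb by 0.42 ± 0.20 (adjusted p = 0.162) and Dkk3 by −0.31 ± 0.24 (adjusted p = 0.392). Sfrp1, at 0.05 ± 0.13, and Lrp6, at −0.06 ± 0.12, were nearest to 0. Frzb passed without knockout estrogen replicate 2, at 0.57 (adjusted p = 0.0363), and its second probe set gave 0.98 (adjusted p = 0.0498 over all probe sets).

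The 3 arrays of high spike-in signal all lie in replicates 1 and 2. Without them, 0 of 9 members passed by limma, with Sfrp2 at −0.93 (adjusted p = 0.0837), Sfrp4 at −0.63 (0.0559), Dkk1 at 0.66 (0.0796) and Wif1 at 0.49 (0.0839). The unadjusted limma p of these 4 were 0.012, 0.00597, 0.0109 and 0.012 in that order. This fit had 13 arrays, and the share of all genes passing in it is not given here. The lost calls thus cannot be set against those of all genes. In these 3 arrays Axin2 ran from 115 to 167 and Wif1 from 556 to 1013, below all other 13 arrays, where Axin2 was at least 194.5 and Wif1 at least 1479. The 3 arrays were the lowest of the 16 for 3.37% of all tested genes. Frzb was also lowest in its group on each of these arrays.

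In the same comparison 17 of 65 genes of the wider Wnt list passed by limma, 11 higher and 6 lower in replicates 3 and 4, where 17.9% of all genes passed. The 6 with the largest differences were Rspo2 and Rspo3, secreted enhancers of Wnt signals, Lrp4, a Sost-binding receptor, the target Ccn4, the corepressor Tle2 and the ligand Wnt7a. Rspo2 ran at 196, 381 and 1008 in replicates 1 and 2 and 5.89, 133 and 178 in replicates 3 and 4 (lowest, median and highest), a difference of −1.87 ± 0.34 (adjusted p = 0.00166). Rspo3 moved the other way, from 48.6, 122 and 248 in replicates 1 and 2 to 235, 284 and 386, by 1.14 ± 0.19 (limma adjusted p = 0.000615). The Rspo2 signals in replicates 3 and 4 and the Rspo3 signals in replicates 1 and 2 lay under 276, the highest single Y-linked signal. Lrp4 differed by 1.10 ± 0.14, Ccn4 by 1.04 ± 0.19, Tle2 by 0.83 ± 0.20 and Wnt7a by −0.83 ± 0.14, each with an adjusted p of 0.00963 or less. Sost differed by 0.38 ± 0.19 and did not pass (limma adjusted p = 0.176).

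Marker genes of other cell types differed between the same pairs of mice. In replicates 3 and 4, limma called 20 of 20 skeletal muscle genes lower, with a median of −4.04, 8 of 10 tendon and fibrous tissue genes lower, with a median of −2.33, and 4 of 5 adipocyte genes lower, with a median of −1.32. The muscle genes Acta1 and Ckm differed by −3.79 ± 0.36 and −4.60 ± 0.43. Of the osteoclast list 9 of 13 genes were called higher, with a median of 0.77, among them the protease gene Ctsk at 1.06 ± 0.15. The osteoblast list had 3 of 7 genes called higher and 1 lower, with Col1a1 at −0.25 ± 0.09, which did not pass (limma adjusted p = 0.0779). In the cartilage list 15 of 16 genes lay above 0, with a median of 0.70 and 2 called, while the defining genes Col2a1 and Acan, at 0.35 ± 0.46 and 0.67 ± 0.40, did not pass. Adipoq, at −0.37 ± 0.14, and Dmp1, at 0.12 ± 0.13, did not pass either. The part of these cells in the Wnt gene values was not tested.

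Across the 16 arrays some members varied together. Over these arrays, which share groups, replicate pairs and array quality, Pearson's r of the log2 signals was 0.93 for Sfrp2 with Sfrp4, 0.80 for Sfrp2 with Dkk3 and 0.71 for Sfrp4 with Dkk3. It was 0.79 for Frzb with Dkk1, 0.72 for Frzb with Wif1 and 0.78 for Dkk1 with Wif1, the genes whose sequences are shown above. With the means of group and replicate pair taken out, these 6 values were 0.95, 0.82, 0.68, 0.80, 0.72 and 0.57. Sfrp2 and Wif1 ran against each other, with r of −0.64. Axin2 went with Wif1, at 0.69.

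Most of these members varied with several marker lists. Sfrp4 and Sfrp2 had r of 0.79 and 0.82 with the mean of the tendon and fibrous tissue list and of 0.86 and 0.90 with the adipocyte list, and Dkk3 had 0.56 and 0.66. With the skeletal muscle list, r was 0.76 for Sfrp4 and 0.82 for Sfrp2, and with the osteoclast list −0.74 and −0.75. Wif1 had r of 0.85 with the cartilage list and 0.84 with the osteoblast list, Frzb 0.76 and 0.72, and Dkk1 0.73 and 0.75. The endothelium and osteocyte lists gave values as high, 0.84 and 0.77 for Wif1, 0.78 and 0.77 for Frzb and 0.70 and 0.71 for Dkk1. With group and pair means taken out, Sfrp4 had 0.51 with the fibrous list and 0.71 with the adipocyte list, and Dkk3 had 0.76 and 0.67. Wif1 then had 0.86 with the cartilage list. Over the 13 arrays of lower spike-in signal, with no means taken out, Sfrp4 had 0.68 with the fibrous list and 0.74 with the adipocyte list. Wif1 had 0.64 with the cartilage list over these arrays. Dkk3 had 0.30 with the fibrous list and 0.41 with the adipocyte list over these 13. Axin2 had r of 0.56 with the cartilage list over 16 arrays and of −0.12 over these 13. Other lists gave Axin2 values as large, 0.57 with endothelium and −0.57 with skeletal muscle over 16 arrays, which were −0.001 and −0.16 over these 13.

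**Figure D5:**
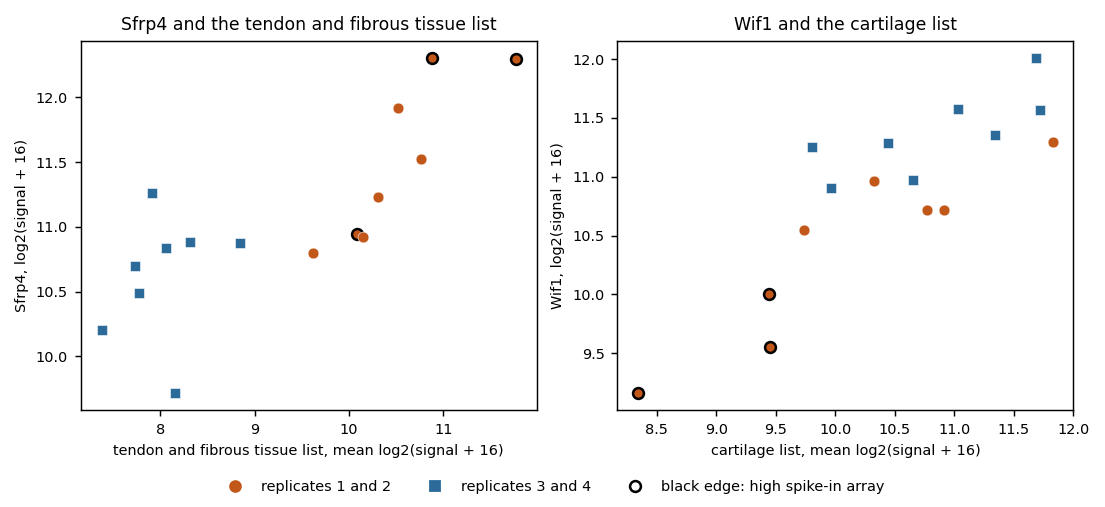
Log2 signal of Sfrp4 against the mean of the tendon and fibrous tissue list (left) and of Wif1 against the mean of the cartilage list (right), 1 point per mouse. Circles are mice 1 and 2, squares mice 3 and 4, and black edges the 3 arrays of high spike-in signal, which hold the lowest 3 Wif1 signals.

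For each tested member, the 3 genes of highest r over the 16 arrays were listed among the 12735 tested genes. Sfrp1 was most like Esr1, the estrogen receptor alpha gene itself, with r of 0.85, then Arpp21 and Steap1. Esr1 had signals of 792, 876, 1100.2 and 1011 in vehicle-treated wild type and 475, 456, 434 and 664 after estrogen, a difference of −0.89 ± 0.19 (limma adjusted p = 0.189), and −0.26 ± 0.19 in the knockout. Both genes had their highest signals in vehicle-treated wild-type replicates 3 and 4. Sfrp4 was most like Aspn and Col3a1, genes of fibrous matrix proteins, with r of 0.95 each, then Ndn. Sfrp2 was most like Maob at 0.95, then Foxp2 and Stbd1. Wif1 was most like S1pr3, Col11a1 and Panx3, at 0.93 each, where Col11a1 encodes a cartilage collagen. Dkk1 was most like Tmem132a at 0.92, the ligand gene Wnt5a at 0.89 and Tceal8. Dkk3 went with Timp2, Rgmb and Bmp2, at 0.90 to 0.87, and Frzb with Ppa1, P3h4 and Pcolce2, at 0.86 to 0.84. The nearest genes of Axin2 were Zbtb39, Taf4 and Rftn1, and those of Lrp6 were Tatdn1, Lpp and Aktip, all between 0.84 and 0.85. These were picked as the highest of 12735 genes and describe these arrays.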

How the data were processed

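Femur RNA of 16 mice was hybridized to Affymetrix Mouse Genome 430 2.0 arrays, and the authors deposited 1 signal intensity per probe set and array. Per the submitters' processing notes, GCOS (Affymetrix software) computed the signals; the sources used here do not give a version. The deposited values have a 2% trimmed mean of 500 on every array. Symbols came from GEO's platform annotation: of 45101 probe sets, 34958 had 1 symbol, 932 had several and were not used, and 64 were controls. Intensities were tested as log2(signal + 16). Each of 18193 genes was read from its probe set of highest mean, the lowest 30% of genes were left out, and 12735 were fitted with limma 3.58.1 (R 4.3.3, lmFit and eBayes with a trend, all 4 groups in 1 fit). The p-values were adjusted by Benjamini-Hochberg over all of them, with a threshold of 0.05. Fold changes of dim genes are understated by the added 16. The comparison of replicate pairs had group and pair as terms. Exact permutation tests on the log2 values were two-sided, and used 70 arrangements for 4 mice against 4 and 36 within the replicate pairs.

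Groups came from the sample titles, and that untreated knockout mice received vehicle came from the series' design text. The number of mice, 4 per group, limits the precision. Tested on simulated data for the wild-type estrogen comparison over 12735 genes, the fit recovered 4, 25, 42 and 48 of 50 genes changed by 0.5, 1, 2 and 3 on the log2 scale, with 6 false calls. The replicate numbers were checked for pairing. Deviations from the group means of same-numbered mice correlated at 0.178 to 0.593 in all 24 pairs, with a median of 0.314. Other numbers of the same replicate pair correlated as high, with a median of 0.354, and mice of different replicate pairs had a median of −0.342. The values thus went with the replicate pair and do not show that single numbers pair the mice.

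The members, the Wnt pathway list and the marker lists were chosen with earlier results of these data known. All members were named with all their probe sets. Of the Wnt list, the genes past the threshold were named (the 6 of largest difference if more), or else the 3 of smallest p, with Sost throughout; genes under the filter on dim genes are named without values. Of the marker lists, defining genes were named. For likeness, the 3 genes of highest r were named. The osteocyte list had 2 of 6 genes called higher in replicates 3 and 4, endothelium 4 of 12 higher and 1 lower, B lymphocyte 1 of 11 lower, neutrophil lineage 6 of 12 lower and erythroid 2 of 8 lower. Alternatives were other pseudocounts, filters and normalizations, array weights, probe set medians, the replicate block, each replicate pair alone, arrays left out and no variance trend.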

Additional observations from a re-analysis of the deposited data

Results flagged for a closer look

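In 3 of the 40 groups of 4 mice (10 genes in 4 groups), 1 mouse lay far from the others, with a gap to its nearest neighbour that, as a share of the group's range, was above Dixon's 95% critical value on the log2(signal + 16) scale. Chance gives about 1 in 20 such groups. Knockout estrogen replicate 1 had the lowest Axin2 signal, 115.48, with a ratio of 0.831, and the lowest Wif1 signal, 556.05, with a ratio of 0.957. This array is one of the 3 with high spike-in signal. Wild-type estrogen replicate 4 had the highest Lrp5 signal, 218.17, with a ratio of 0.853, and the probe set of Lrp5 lay under the filter on dim genes. On the signal scale 3 groups also passed, with Wif1 at 0.918 and Lrp5 at 0.88, but Axin2 did not, at 0.789, and Dkk1 in wild type after estrogen did, at 0.843 against 0.759 on the log2 scale.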

How the results depend on the processing

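No member of the 9 tested passed in the 7 comparisons of treatment and genotype under any of 210 recomputed counts, and no gene of the wider Wnt list did either. With the replicate number as a block, 0 members passed in these 7 comparisons, 4 passed between the replicate pairs, and 16 genes of the Wnt list passed there, against 17 without the block. It changed no member's call. Between the replicate pairs, leaving out 1 mouse gave 4 to 5 called members and 13 to 22 called list genes, with the fifth member, Frzb, called without knockout estrogen replicate 2. With the 3 high spike-in arrays left out, 0 of 9 members passed by limma, with 4 at an unadjusted p under 0.05. That fit had fewer arrays, and the share of all genes passing in it is not given here. A filter that left out 50% of the genes gave 11 list genes, 8 higher and 3 lower, of 38 tested. Scaling arrays to the same median moved the median of all genes in the difference between responses from 0.01 to −0.10. No called value changed sign. Of 2125 recomputed values, 147 had another sign where neither value passed. Leaving out 1 mouse gave differences of 0.74 to 1.47 for Dkk3 between responses, −0.56 to −0.35 for Sfrp1 in wild type, −1.16 to −0.68 for Sfrp4 in wild type and −0.86 to −0.56 for Axin2 in the knockout. With the median over probe sets, Axin2 in the knockout against wild type after estrogen was 0.04, against −0.51 from its brighter probe set. This median takes in the second Axin2 probe set, whose mean signal of 38.2 was at the level of background.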
